A study of Mus musculus with 12 samples.

Results

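The genes described here are 7 genes of superoxide production, Cyba, Cybb, Ncf1, Ncf4, Nox4, Rac2 and Xdh, taken by symbol from a table of 26781 genes measured in mouse heart. Of these, 5 encode parts of the phagocyte NADPH oxidase (Cybb, Cyba, Ncf1, Ncf4 and Rac2), Nox4 encodes a second catalytic subunit, and Xdh encodes xanthine dehydrogenase, which is not an NADPH oxidase subunit. The mice were of the inbred strain C57BL/6J. The 12 libraries fell into 4 groups of 3, labelled sham (taken as the operated control), MI, CIH and MI+CIH. MI was taken to stand for myocardial infarction and CIH for chronic intermittent hypoxia, which mimics the repeated oxygen drops of sleep apnoea. Age, sex, the time of collection, the hypoxia schedule and the part of the heart sampled are not given in the sources used here. Nothing says that the libraries of a group came from separate animals, so the p-values measure the spread between these libraries, which may be technical.

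NADPH oxidases move electrons from NADPH across a membrane to oxygen and make superoxide or hydrogen peroxide. In phagocytes the catalytic subunit NOX2 (Cybb) and its membrane partner p22phox (Cyba) stay silent until cytosolic subunits, among them p47phox (Ncf1) and p40phox (Ncf4), and the small GTPase Rac join them. NOX4 also needs p22phox but works without the cytosolic subunits, makes mostly hydrogen peroxide, and is found in the heart in fibroblasts, endothelial cells and muscle cells.

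The promoters are shown because the catalytic subunits, whose levels are set against each other below, start from unlike sequence. The RefSeq promoter table (GRCm38.p6) held 4 of the 7 genes; Ncf4, Rac2 and Xdh are named only. Each line gives the 100 bases before the start that RefSeq lists, 5′ to 3′ on the gene's strand, with capitals marking a CCAAT box or a GC box (GGGCGG, or CCGCCC on the other strand). The gene positions given further on are those of GENCODE M21, whose genes begin at the outermost transcript, so the Nox4 and Cybb windows lie inside the GENCODE genes.
Nox4, chr7:87246549-87246648, plus strand: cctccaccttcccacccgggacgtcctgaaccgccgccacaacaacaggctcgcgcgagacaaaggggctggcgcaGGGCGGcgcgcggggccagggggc
Cybb, chrX:9469325-9469424, minus strand: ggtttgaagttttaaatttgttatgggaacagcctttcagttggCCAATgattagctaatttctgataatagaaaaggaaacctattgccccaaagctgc
Cyba, chr8:122432941-122433040, minus strand: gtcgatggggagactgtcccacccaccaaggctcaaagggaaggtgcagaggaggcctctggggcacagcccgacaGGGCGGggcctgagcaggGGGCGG
Ncf1, chr5:134229626-134229725, minus strand: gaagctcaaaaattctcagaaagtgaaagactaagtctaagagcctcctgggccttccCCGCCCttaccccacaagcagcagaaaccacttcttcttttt

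The Nox4 window was 75% G or C with 12 CpG pairs, whereas the Cybb window was 37% G or C with 0 CpG pairs. Cyba stood near Nox4 at 70%, Ncf1 lay at 47%, and the median over all promoters was 55.0%. The first letter of the CCAAT match of Cybb lay at -56, counted back from the start, and that of the Nox4 GC box at -24. Cyba had 2 GC boxes, at -24 and -6, and Ncf1 had 1 at -42, read on the other strand. Among 32851 promoters, 18.9% held CCAAT and 24.7% held GGGCGG in the same window on either strand, and the 2 motifs did not overlap in any of the windows shown. The third motif searched, the string GAGGAA, was in 9.8% of promoters and in none of these 4 windows. It is longer than GGAA, the core bound by ETS factors such as PU.1. Each of the 4 windows holds GGAA when both strands are read, so the missing string does not show a missing core. The matches are letters in a window, and nothing about the binding of a factor was measured.

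Levels are given as FPKM, reads per kilobase of exon scaled to the library total, so that genes of unequal length can be set side by side. Which of 2 genes is higher thus depends on their annotated exon lengths. These were 8471 bases for Nox4, 5808 for Cybb and 1039 for Cyba. All 7 genes passed the filter on low values, 0.5 FPKM in at least 3 libraries, as did 15503 genes in all. Library totals, recovered from the values, were 26.06 to 33.42 M reads. Changes are differences of log2(FPKM + 0.5), which understate the change of low genes such as Nox4. They were tested with limma across all 15503 genes with Benjamini-Hochberg adjustment within a comparison, and "rose" or "fell" means an adjusted p below 0.05. Infarction was tested without hypoxia (MI against sham), under hypoxia (MI+CIH against CIH), and as the mean of both differences, called the infarction average. The means compared in the first and the second of these share no library. Both tests use 1 spread per gene estimated from all 12 libraries, so they are not independent.

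Libraries of a group correlated at 0.932 to 0.97 across genes. Some libraries stood apart. Airway and lung markers (6 genes, among them surfactant genes) summed to 0.128 to 12.9 FPKM in 8 libraries, but to 510 in sham 2 and to 297, 3260 and 1050 in MI+CIH 1 to 3. In the MI+CIH group this cannot be told apart from the treatment. MI+CIH 3 also had a neutrophil marker sum of 247 FPKM against 2.64 to 14.1 in the other 11 libraries, and the lowest cardiomyocyte marker sum, 5100 against 9240 to 14900 FPKM. Cardiomyocyte markers had the highest sum of all lists in every library except MI+CIH 3, so the libraries match the tissue label. In MI+CIH 3 atrial markers summed to 5300 FPKM, of which Nppa alone gave 4790. Myl7, another atrial marker, was at 357 FPKM there against 470 to 626 in sham. Results are therefore also given without sham 2 and MI+CIH 3 where that changes them. This keeps MI+CIH 1 and MI+CIH 2, with airway sums of 297 and 3260 FPKM. It therefore cannot address the airway transcripts of the MI+CIH group. Atrial and epicardial transcripts varied too. Myl7 was at 84.5, 552 and 156 FPKM in CIH 1 to 3. The MI libraries had 1070, 218 and 119, and MI+CIH 1 and MI+CIH 2 had 416 and 1040. The 5 epicardium and mesothelium markers summed to at most 12.8 FPKM in CIH, whereas every MI+CIH library had at least 24.4. Of these 5, 4 rose in MI+CIH against CIH and 0 in MI against sham. Whether such content bears on the changes of the 7 genes was not tested.

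In the infarction average, 5 of the 7 genes rose: Nox4, Ncf1, Ncf4, Rac2 and Cybb. Over all genes 17.2% rose in that average, and 24.1% passed in either direction. All 5 also rose in MI+CIH against CIH (19.9% of all genes rose). In MI against sham only Nox4 did (1.37% of all genes rose). In the infarction average Nox4 also led the 7. Its change there was the greatest, 1.91 ± 0.23 (SE), with limma adjusted p = 0.000678. Cyba, the shared membrane partner, and Xdh did not pass. The same 5 genes passed in each of the 19 or 20 alternative fits that could be made for them, including the one without sham 2 and MI+CIH 3. Hypoxia on its own moved none of the 7 past the threshold.

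**Figure D1:**
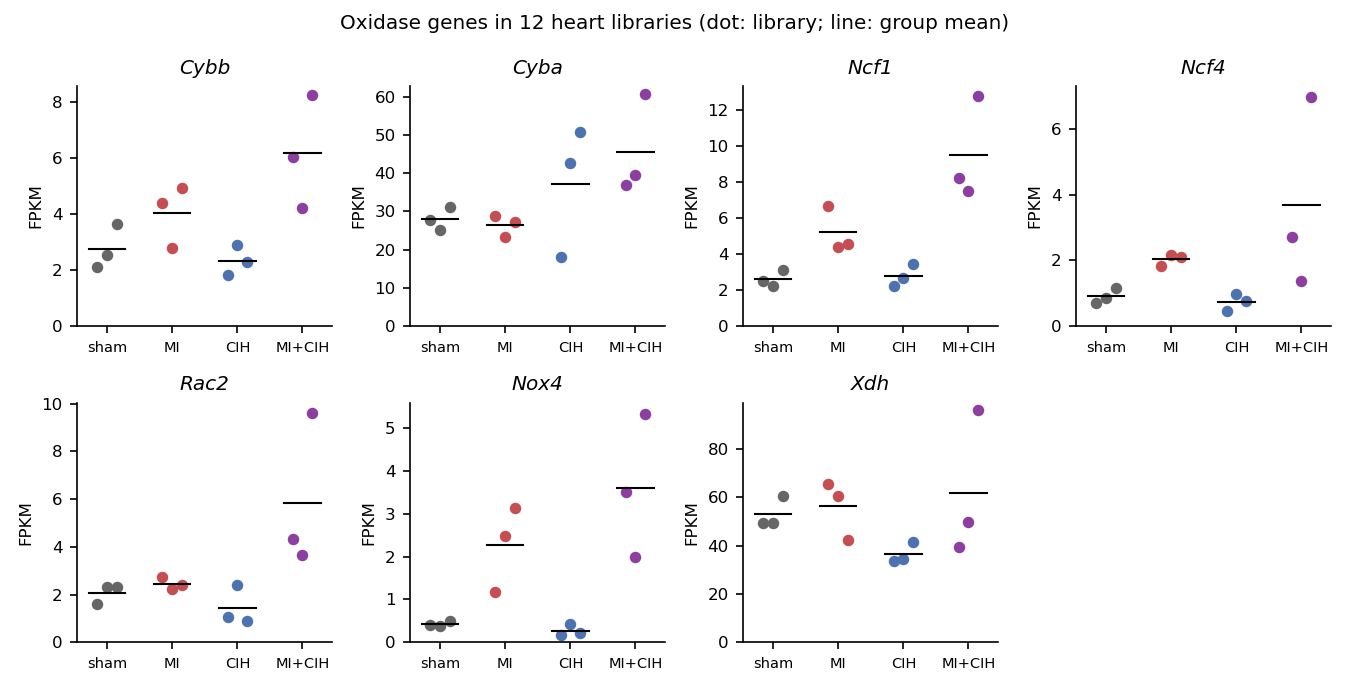
FPKM of the 7 genes in each of the 12 libraries (vertical axes linear from 0, horizontal axis the 4 groups); dots are libraries and lines group means, n = 3. Nox4 is between 1.18 and 5.33 FPKM in the 6 infarcted libraries and between 0.172 and 0.51 in the other 6, whereas Cyba and Xdh overlap between most groups.

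Nox4 (chromosome 7, 87246096 to 87398710, plus strand, GENCODE M21 on GRCm38) makes hydrogen peroxide constitutively, so that its amount largely sets its output. Its levels were 0.412, 0.389 and 0.51 FPKM in sham and 1.18, 2.48 and 3.13 in MI. In CIH they were 0.172, 0.424 and 0.228, and in MI+CIH 3.51, 1.98 and 5.33 FPKM. Every infarcted library was above every library without infarction, and the lowest value rested on 41 reads. Group means were 3.61 ± 1.68 (SD, n = 3) in MI+CIH, 2.26 ± 0.99 in MI, 0.437 ± 0.0641 in sham and 0.275 ± 0.132 in CIH. Neighbours in that order overlapped, except MI and sham.

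Nox4 rose by 1.49 ± 0.33 (SE, log2) in MI against sham, with limma adjusted p = 0.0446, and was the only one of the 7 to pass. In that comparison 1.37% of all genes rose and 1.96% passed. The call was close to the threshold: it held in 9 of 21 alternative fits, whose adjusted p ranged from 0.026 to 0.186. It was lost without sham 1 (adjusted p = 0.166), sham 2 (0.144), sham 3 (0.088), MI 2 (0.159), MI 3 (0.186), CIH 3 (0.0639) or MI+CIH 1 (0.0623), and without sham 2 and MI+CIH 3 together (0.0908). The change itself stayed between 1.14 and 2.25 log2 units over all 21. Under hypoxia Nox4 rose by 2.33 ± 0.33 (limma adjusted p = 0.00175), and this call held in 21 of 21 alternative fits. With a pseudocount of 0.1 the change in MI against sham was 2.04.

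Cybb (chromosome X, 9435252 to 9487771, minus strand) encodes NOX2, the catalytic subunit of phagocytes. It measured 2.12, 2.52 and 3.63 FPKM in sham, 4.39, 2.77 and 4.93 in MI, 1.83, 2.9 and 2.27 in CIH, with 6.05, 4.21 and 8.26 in MI+CIH. MI overlapped sham through MI 2, while all 3 MI+CIH libraries were above all 3 of CIH and of sham. The change in MI against sham, 0.47 ± 0.27, did not pass (limma adjusted p = 0.412). Under hypoxia Cybb rose by 1.21 ± 0.27 (adjusted p = 0.0082), and it rose by 0.84 ± 0.19 in the infarction average (adjusted p = 0.00979).

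Cyba (chromosome 8, 122424776 to 122432930, minus strand) encodes p22phox, which both NOX2 and NOX4 need to be stable. It was far more abundant than either: 27.7, 25.1 and 31.2 FPKM in sham and 28.7, 23.3 and 27.1 in MI. In CIH it was 18.0, 42.6 and 50.8 FPKM, the widest relative spread of the 4 groups, and in MI+CIH 36.9, 39.4 and 60.7. MI+CIH lay above sham and MI without overlap, but the changes against sham (0.66 ± 0.32, limma adjusted p = 0.181) and against MI (0.75 ± 0.32, adjusted p = 0.239) did not pass. The infarction average was 0.15 ± 0.23 (adjusted p = 0.67) and turned to -0.08 without CIH 1. Without CIH 1 the change against sham passed, with adjusted p = 0.0356; over its 21 alternatives the adjusted p ranged up to 0.646.

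Ncf1 (chromosome 5, 134220053 to 134229625, minus strand) encodes p47phox, the organizer whose phosphorylation starts assembly. Its levels were 2.52, 2.24 and 3.11 FPKM in sham, 6.69, 4.37 and 4.54 in MI, 2.2, 2.66 and 3.46 in CIH, with 8.23, 7.49 and 12.8 in MI+CIH. MI stood above sham and CIH, and MI+CIH above MI, each without overlap. In the 2 infarction contrasts the changes were 0.85 ± 0.23, which did not pass (limma adjusted p = 0.0842), and 1.59 ± 0.23, which did (adjusted p = 0.0018). Without MI+CIH 3 the first passed, with adjusted p = 0.0401 (range over 21 alternatives 0.0385 to 0.259). Its exons share 408 of 3663 bases (11.1%) with Gtf2ird2 on the other strand, and as no strand setting is stated, reads there cannot be assigned to one gene.

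Ncf4 (chromosome 15, 78244801 to 78262580, plus strand) encodes p40phox, which binds a phagosome lipid and sustains the burst. It was low, at 0.704, 0.859 and 1.17 FPKM in sham, 1.82, 2.17 and 2.1 in MI, 0.44, 0.962 and 0.761 in CIH, with 2.71, 1.38 and 6.98 in MI+CIH. MI was above sham without overlap, and MI+CIH 3 was more than any other library. The change in MI against sham, 0.85 ± 0.39, did not pass (limma adjusted p = 0.308), and the rise under hypoxia was 1.57 ± 0.39 (adjusted p = 0.0136). Without MI+CIH 3 that rise was 1.03, with adjusted p = 0.0265. A fit of the MI+CIH and CIH libraries alone gave 0.076, the only one of 20 alternatives in which the call was lost.

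Rac2 (chromosome 15, 78559167 to 78572783, minus strand) encodes the Rac of blood cells, which completes the active complex. It measured 1.6, 2.3 and 2.32 FPKM in sham, 2.76, 2.22 and 2.42 in MI, 1.05, 2.41 and 0.894 in CIH, with 4.31, 3.65 and 9.61 in MI+CIH. Only the MI+CIH libraries stood apart, above all other 9. The change was 0.21 ± 0.34 in MI against sham (limma adjusted p = 0.805) and 1.67 ± 0.34 under hypoxia, where it rose (adjusted p = 0.00574). Rac1, its close relative in most other cells, was at 23.6 to 34.5 FPKM, with an infarction average of 0.02 ± 0.11 (adjusted p = 0.928).

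Xdh (chromosome 17, 73883895 to 73950196, minus strand) encodes the enzyme that turns hypoxanthine and xanthine into uric acid and, in its oxidase form, gives superoxide and hydrogen peroxide. It was the most abundant of the 7 in most libraries, at 49.6, 49.5 and 60.6 FPKM in sham, 65.6, 60.8 and 42.4 in MI, 33.8, 34.4 and 41.4 in CIH, with 39.3, 49.7 and 96.2 in MI+CIH. All CIH libraries lay below all sham libraries, as was so for 11.8% of all genes in that direction. The change, -0.54 ± 0.28, did not pass (limma adjusted p = 0.482). The change under hypoxia, 0.65 ± 0.28, did not pass either (adjusted p = 0.109) but did without MI+CIH 1 (adjusted p = 0.038; range over 20 alternatives up to 0.416). Its infarction average was 0.36 ± 0.2 (adjusted p = 0.219).

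**Figure D2:**
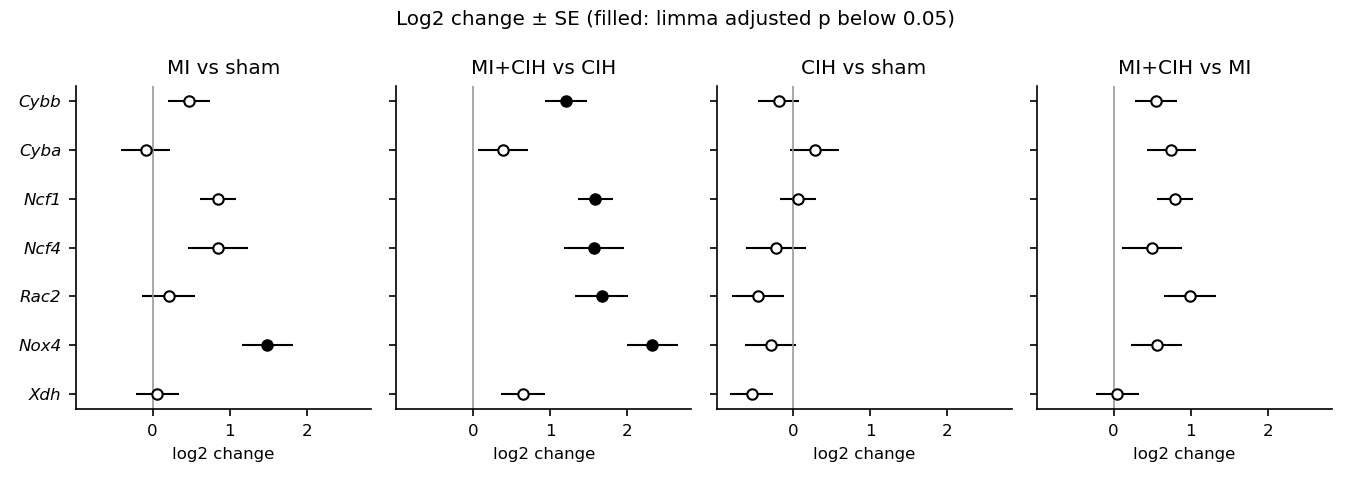
Log2 change of the 7 genes (horizontal axes, difference of log2(FPKM + 0.5), bars ± SE) in 4 comparisons; filled points passed limma's adjusted threshold. Nox4 passes in MI against sham at 1.49, 5 genes pass in MI+CIH against CIH between 1.21 and 2.33, and none passes in the 2 hypoxia comparisons.

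Set by contrast, infarction raised 1 of the 7 genes without hypoxia and 5 under hypoxia, where 19.9% of all genes rose and 28.2% passed. The median change of the 7 was 0.47 in MI against sham, beside 0.06 over all genes, and 1.57 in MI+CIH against CIH, beside 0.2. Scaling by median of ratios took the all-gene median in MI+CIH against CIH from 0.2 to 0.03, and the same 5 genes passed. The libraries did not overlap, with infarction above, for 3 of 7 genes in MI against sham (19.8% of all genes) and for 5 of 7 under hypoxia (27.3%). The differing counts do not show that hypoxia altered the response. The interaction, which tests that difference, passed for 0 of the 7 by limma (0 of 4 by voom) and for 12 genes in all (0.0774%), with 3294 at an unadjusted p below 0.05. Among the 7, the 2 below 0.05 unadjusted were Rac2 (1.45 ± 0.48, unadjusted p = 0.0108, limma adjusted p = 0.123) and Ncf1 (0.74 ± 0.32, unadjusted p = 0.0408, adjusted p = 0.216).

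Against sham, the double treatment MI+CIH raised the same 5 genes (11.3% of all genes rose, 16.8% passed): Nox4 by 2.05 ± 0.33, Ncf1 by 1.65 ± 0.23, Ncf4 by 1.35 ± 0.39, Rac2 by 1.2 ± 0.34 and Cybb by 1.02 ± 0.27. The limma adjusted p were between 0.00255 for Ncf1 and 0.0373 for Ncf4. Nox4 and Ncf1 passed in all 21 alternatives, but the other 3 did not. Without sham 1, without sham 2, without MI+CIH 3, or without sham 2 and MI+CIH 3 together, 2 genes passed; without sham 3 or without MI+CIH 1, 3 passed. This comparison shares its libraries with the infarction contrasts and adds no separate evidence. In 6 of the 7 genes, Xdh being the exception, all MI+CIH libraries lay above all sham libraries, as in 23.8% of all genes.

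By limma the hypoxia comparisons passed for 0 of the 7 genes, and voom on recovered reads also called 0 of 4. At an unadjusted p below 0.05 there were 0 of the 7 in CIH against sham and 3 in MI+CIH against MI. In CIH against sham 1 gene passed in all (0.00645%), with 1836 at an unadjusted p below 0.05, and the 7 changes lay between -0.54 (Xdh) and 0.28 (Cyba). In MI+CIH against MI 0.329% of genes passed, and 2934 of 15503 had an unadjusted p below 0.05. There the greatest of the 7 changes were Rac2 at 0.99 ± 0.34 (limma adjusted p = 0.152), Ncf1 at 0.8 ± 0.23 (adjusted p = 0.101) and Cyba at 0.75 ± 0.32. For these 3 genes every MI+CIH library exceeded every MI library, as for 14.6% of all genes. Ncf1 passed without MI+CIH 2, with adjusted p = 0.048 (range over 21 alternatives up to 0.32). With 3 libraries a group, a p that misses the threshold does not show that hypoxia left these genes alone.

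The balance of the catalytic subunits was read within each library as the ratio of Nox4 to Cybb FPKM. It was 0.195, 0.154 and 0.14 in sham and 0.094, 0.146 and 0.1 in CIH. With infarction it was 0.27, 0.895 and 0.635 in MI and 0.581, 0.469 and 0.645 in MI+CIH. Cybb exceeded Nox4 in all 12 libraries, and all 6 infarcted libraries had a higher ratio than the other 6. With 0.5 FPKM added before the log2 that separation did not hold, as MI 1 was at -1.54 and sham 1 at -1.52. On the log2(FPKM + 0.5) scale Nox4 gained on Cybb by 1.02 without hypoxia and by 1.13 under it, 1.07 on average. A two-sided exact permutation test within the hypoxia strata (400 orders, smallest possible p 0.005) gave p = 0.01, or 0.06 adjusted over the family of 6 such tests, so the difference did not pass. With a pseudocount of 0.1 it was 1.72 and the adjusted exact p was 0.015. The effect of hypoxia on the same difference was -0.04 (exact p = 0.87).

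**Figure D3:**
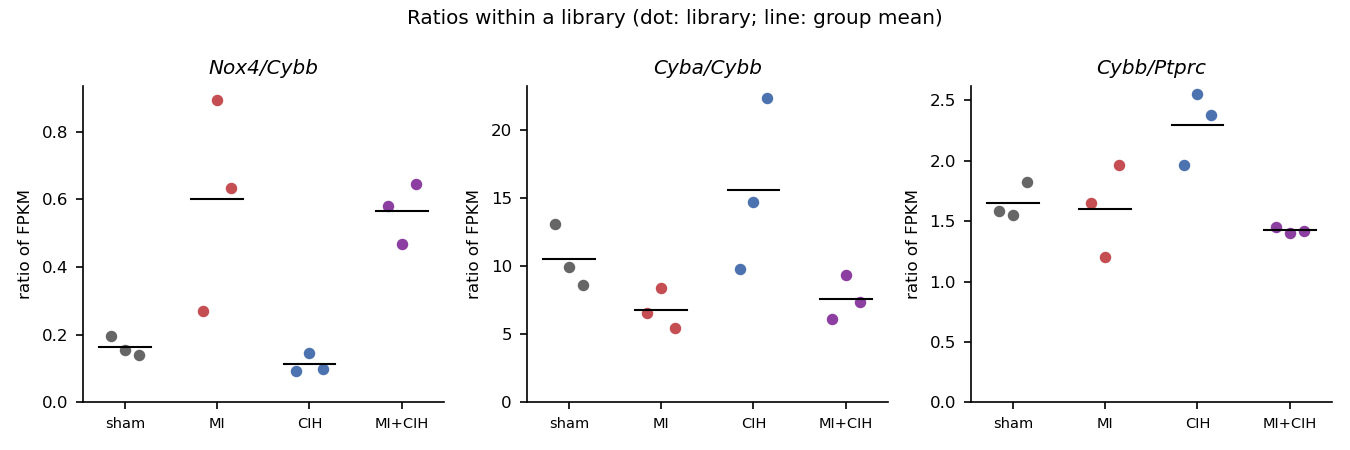
Ratios of FPKM within each library (vertical axes linear from 0, horizontal axis the 4 groups); dots are libraries and lines group means, n = 3. The Nox4 to Cybb ratio is 0.094 to 0.195 without infarction and 0.27 to 0.895 with it. The Cyba to Cybb ratio is 5.49 to 8.42 in MI, below the 8.6 to 13.1 of sham. The Cybb to Ptprc ratio overlaps between MI and sham. It is 1.96 to 2.55 in CIH, above the 1.55 to 1.82 of sham, and 1.4 to 1.45 in MI+CIH, below sham and CIH.

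The p22phox gene outnumbered the catalytic genes throughout. The Cyba to Cybb ratio of FPKM had group means of 10.6 ± 2.31 (SD, n = 3) in sham, 6.82 ± 1.49 in MI, 15.6 ± 6.35 in CIH, with 7.6 ± 1.64 in MI+CIH. The Nox4 to Cyba ratio was 0.0155 ± 0.000736 in sham, 0.0877 ± 0.0405 in MI, 0.008 ± 0.00305 in CIH, with 0.0778 ± 0.0241 in MI+CIH. Ncf1 ran near Cybb in level, at a ratio of 0.857 to 1.78 over the 12 libraries. Ncf4 was below Cybb in every library, at 0.24 to 0.845 of its level.

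Markers of several cell types moved with infarction too. In whole tissue, fewer cells of a type and less RNA per cell cannot be told apart. The 10 macrophage markers summed to 151 to 243 FPKM in sham, 251 to 349 in MI and 117 to 232 in CIH. They summed to 325 to 640 in MI+CIH, had no marker at 0 in a whole group, and 9 of 10 rose in the infarction average. Over all genes 17.2% rose in that average, and 1068 of 15503 fell. The 9 fibroblast markers summed to 759 to 829, 1180 to 1640, 541 to 1100 and 1240 to 1880 FPKM in the same order, and 7 of 9 rose. Without sham 2 and MI+CIH 3, 7 of the macrophage and 6 of the fibroblast markers rose. In MI against sham alone, 1 macrophage and 4 fibroblast markers rose (1.37% of all genes rose), and 0 of either without sham 2. The 6 general leukocyte markers summed to 28.8 to 42.1, 37.9 to 46.8, 16.3 to 33.9 and 57.2 to 138 FPKM, and 4 of 6 rose. The 10 neutrophil markers summed to 4.85 to 13.6 FPKM in sham and 3.26 to 3.53 in MI, where Ly6g was at 0. Of the 5 neutrophil markers tested 0 passed, with 2.64 to 6.48 FPKM in CIH, where Mpo and Elane were at 0, and 14.1, 4.49 and 247 in MI+CIH. The 8 endothelial markers summed to 261 to 402 FPKM over all 12 libraries. Of 5 adipocyte markers tested 4 rose, with a median of 2.71, and the list summed to 247 to 1010 FPKM in infarcted libraries and 62.7 to 311 in the others. Of 8 cardiomyocyte markers 4 fell, of 5 red cell markers 4 fell, and of 6 smooth muscle and pericyte markers 3 rose and 1 fell. Without sham 2 and MI+CIH 3, 4 adipocyte markers rose, 3 red cell markers fell, and 0 of the cardiomyocyte and 0 of the smooth muscle markers passed. Their part in the changes of the 7 genes was not tested.

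**Figure D4:**
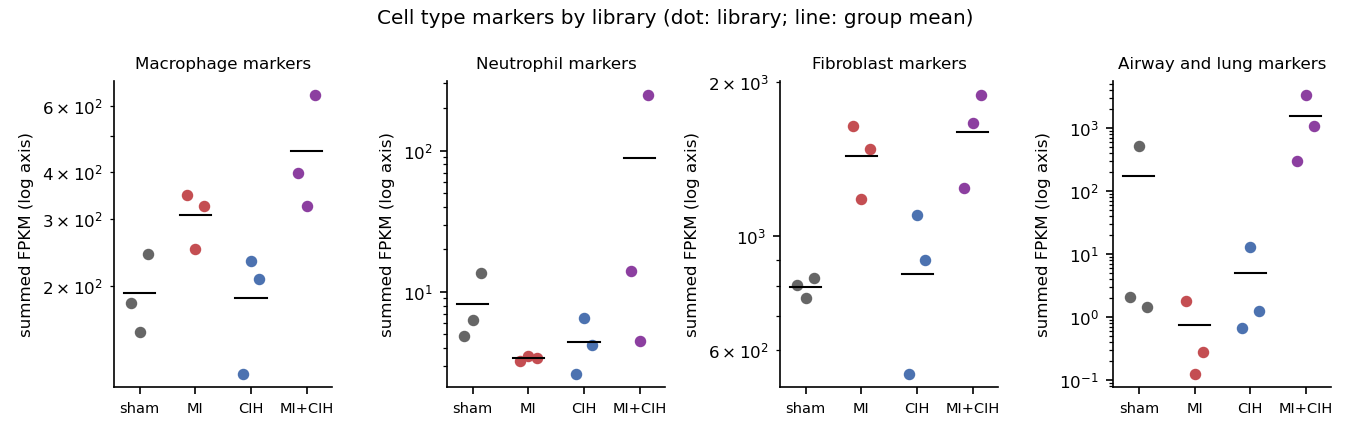
Summed FPKM of 4 marker lists in each library (vertical axes logarithmic, horizontal axis the 4 groups); dots are libraries and lines arithmetic group means, n = 3. Macrophage and fibroblast sums are higher in all infarcted libraries, one neutrophil sum stands at 247 in MI+CIH 3, and lung sums are at or above 297 in sham 2 and the 3 MI+CIH libraries.

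Cybb was therefore also set against the mean of the macrophage markers, and Nox4 against that of the fibroblast markers. Cybb minus the macrophage mean changed by -0.08 log2 units with infarction (two-sided exact permutation p = 0.365, adjusted 0.73) and by -0.03 with hypoxia (exact p = 0.755, adjusted 0.87). The per-library differences ranged from -2.2 to -1.75, and all 4 groups overlapped. Nox4 minus the fibroblast mean changed by 0.58 with infarction, 0.27 without hypoxia and 0.9 under it (exact p = 0.035, adjusted 0.105), and by -0.11 with hypoxia (exact p = 0.575, adjusted 0.862). With a pseudocount of 0.1 the 0.58 became 1.3, with an adjusted exact p of 0.015. The Cybb to Ptprc ratio of FPKM, Ptprc encoding the pan-leukocyte protein CD45, was 1.65 ± 0.148 (SD, n = 3) in sham, 1.6 ± 0.381 in MI, 2.29 ± 0.305 in CIH, with 1.42 ± 0.0259 in MI+CIH. Whether cell numbers account for the changes was not tested.

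The 5 genes whose levels followed each catalytic subunit most closely were different ones. For Nox4 they were Thbs1 (thrombospondin 1, Pearson r = 0.983), Loxl3 (a lysyl oxidase, 0.982), Bmp1 (the procollagen C-proteinase, 0.981), Bgn (biglycan, 0.981) and Mgp (matrix Gla protein, 0.98). For Cybb they were Plekho2 (r = 0.981), Cd53 (a leukocyte tetraspanin, 0.969), Ptprj (a receptor phosphatase, 0.965), Mphosph6 (0.962) and Ikbip (0.961). The correlations are over log2(FPKM + 0.5) in 12 libraries and 12395 genes with a mean of at least 1 FPKM. They describe libraries that share treatments and marker content. Thbs1, for example, ran from 8.9 FPKM in CIH 1 to 154 in MI+CIH 3, and Cd53 from 1.35 in CIH 1 to 13.0 in MI+CIH 3. Within the set, r was 0.81 to 0.92 between each pair of Cybb, Ncf1, Ncf4, Nox4 and Rac2, and 0.31 to 0.56 between Cyba and the other 6.

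Several other oxidase genes were barely detected. Nox1, Nox3, the dual oxidases Duox1 and Duox2, their maturation factors Duoxa1 and Duoxa2, and the NOX1 partners Noxa1 and Noxo1 did not pass it and were not tested. The highest value among these 8 genes was 0.545 FPKM, for Noxo1 in MI+CIH 3.

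Of 20 tested genes that assemble or activate the oxidases, 12 rose and 1 fell in the infarction average (17.2% of all genes rose and 24.1% passed), with a median change of 0.62 beside 0.13 over all genes. Sh3pxd2b, an organizer protein related to p47phox, rose by 1.53 ± 0.15 (limma adjusted p = 0.000313) and was 2.62, 2.46 and 2.95 FPKM in sham and 7.92, 7.78 and 7.41 in MI. Dock2 and Vav1, which load Rac with GTP in blood cells, rose by 1.14 ± 0.16 and 1.06 ± 0.18, and the Rac effector kinase Pak1 by 1.19 ± 0.17. Cybc1, the chaperone of NOX2 and p22phox, rose by 0.49 ± 0.1, and the proton channel Hvcn1, which balances the oxidase's charge, by 0.76 ± 0.16. Poldip2, which binds p22phox and raises NOX4 activity, fell by 0.38 ± 0.11 log2 units (adjusted p = 0.0274). It was 13.2, 15.2 and 16.3 FPKM in sham, 14.5, 16.8 and 15.7 in MI, 18.1, 21.0 and 19.6 in CIH, with 9.05, 13.8 and 10.2 in MI+CIH, so that MI overlapped sham. Without sham 2, without MI+CIH 3, or without both, 0 of the 20 genes fell, and 12, 13 and 12 rose.

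**Figure D5:**
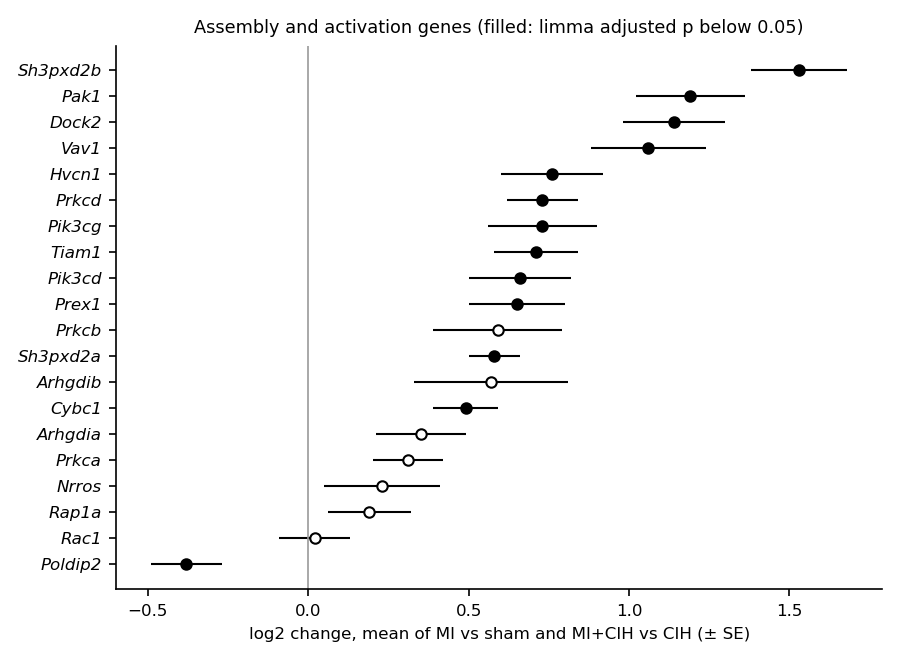
Infarction average of the 20 tested assembly and activation genes (horizontal axis, log2 change ± SE, the mean of MI against sham and MI+CIH against CIH); filled points passed limma's adjusted threshold. The changes run from -0.38 for Poldip2 to 1.53 for Sh3pxd2b, and Rac1 lies at 0.02.

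In the single contrasts, 2 of the 20 assembly genes rose in MI against sham, Sh3pxd2b by 1.37 ± 0.21 and its relative Sh3pxd2a by 0.55 ± 0.12, and 0 rose without sham 2. Of all genes 1.37% rose in MI against sham. Under hypoxia 14 of the 20 rose and 1 fell, or 10 and 1 without sham 2 and MI+CIH 3. There 19.9% of all genes rose and 28.2% passed with all libraries kept. Against sham, 11 of the 20 rose in MI+CIH (11.3% of all genes rose), and 3 without those libraries. In CIH against sham, in MI+CIH against MI and in the interaction, 0 passed.

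Of 12 other enzymes tested that make superoxide, peroxide or nitric oxide, 3 rose and 1 fell in the infarction average, which is near the 17.2% of all genes that rose and the 24.1% that passed. Their median change was 0.26 beside 0.13 over all genes. The 3 were the collagen cross-linking oxidases Lox (2.95 ± 0.4, limma adjusted p = 0.00106), Loxl1 (1.51 ± 0.24) and Loxl2 (1.26 ± 0.18), and the one that fell was Nos2, inducible nitric oxide synthase (fell by 0.81 ± 0.16 log2 units, adjusted p = 0.00534). Under hypoxia the same 3 and Aox3, an aldehyde oxidase, rose (Aox3 by 1.51 ± 0.43, adjusted p = 0.0242). There 19.9% of all genes rose. Lox was 1.25, 1.85 and 1.34 FPKM in sham and 6.17, 12.0 and 18.4 in MI. Under median-of-ratios scaling 3 rose and 3 fell in the infarction average. Maoa, a mitochondrial monoamine oxidase, changed by 0.18 ± 0.14 and did not pass.

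Around Xdh in purine breakdown, 4 of 14 genes tested rose in the infarction average, where 17.2% of all genes rose, and the median change was 0.36 beside 0.13 over all genes. The 4 were Nt5e (CD73, 0.83 ± 0.16) and Entpd1 (CD39, 0.82 ± 0.16), which turn extracellular ATP and AMP into adenosine, Pnp2 (a purine nucleoside phosphorylase, 0.8 ± 0.23) and Ampd2 (an AMP deaminase, 0.36 ± 0.11). Pnp2 lay near the floor, with a mean of 0.329 FPKM and at most 0.859, in MI+CIH 3. It was at 0 in sham 1, CIH 1 and CIH 3. Under median-of-ratios scaling 3 of the 14 genes rose and 1 fell. In MI against sham 1 rose, Nt5e, by 1.0 ± 0.22 (limma adjusted p = 0.048), and 0 without sham 2. Over all genes 1.37% rose in MI against sham and 19.9% under hypoxia. Under hypoxia 4 of the 14 rose, among them Gda, the guanine deaminase that supplies xanthine, by 1.1 ± 0.29 (adjusted p = 0.0157). Adk, which recycles adenosine into AMP, fell there by 0.82 ± 0.18 (adjusted p = 0.00863); without MI+CIH 3, 1 rose and 1 fell.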

How the data were processed

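RNA of 12 mouse heart libraries was measured, 3 per group. Per the labels' protocols, total RNA was taken with Trizol from frozen hearts, and a small RNA library kit is named, although the values cover messenger RNAs. Per the submitters' processing notes, the build was mm10 and the tools included DESeq 1.8.3, featureCounts 1.5.0-p3 and HISAT, with no role given. The authors deposited FPKM, a unit read from the values: with GENCODE M21 exon lengths, 89.7% of 25429 genes came out as whole reads within 0.1 reads in every library. Totals were 26.06 to 33.42 M reads, and they bound counting error only.

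Genes reaching 0.5 FPKM in 3 or more libraries were kept. Their log2(FPKM + 0.5) entered a robust limma-trend model (limma 3.58.1, statmod 1.5.0, R 4.3.3) with 1 mean per group and no covariate, and 7 contrasts adjusted by Benjamini-Hochberg at 0.05, after the fit was tested on simulated data. Differences of 2 log values were tested by exact permutation within strata (6 tests, adjusted together). Symbols and positions come from GENCODE M21 and promoters from RefSeq (GRCm38.p6). One gene of the lists is not reported here. Members, gene lists and tests were chosen with earlier results of these data known. Named are all 7 genes, up to 4 passing genes per list and contrast by smallest p, 2 by level where none passed, and the 5 genes most correlated with Nox4 and with Cybb; Rac1, Maoa, Cybc1 and Hvcn1 were named after their values were seen. Alternatives were other filters and pseudocounts, fitting only the groups compared, a replicate block, leaving out libraries, median-of-ratios scaling, and voom on recovered reads of the 4 genes that gave whole reads (Cyba, Cybb, Ncf1 and Nox4).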

Additional observations from a re-analysis of the deposited data

How the results depend on the processing

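Of the values of single genes among the 7 over all alternatives, 931 kept their direction and side of the threshold, 39 lost it, 6 gained it and 18 changed direction. Members passing in MI against sham (1) numbered 0 with no filter, with pseudocount 1, with the replicate block, without sham 2 and MI+CIH 3, and with voom (of 4 genes), 3 in a fit of only those groups, and 0 to 2 with 1 library left out. For MI+CIH against sham (5) they numbered 3 with no filter, 2 with only those groups, 2 without sham 2 and MI+CIH 3, 3 with voom, and 2 to 6 with 1 library left out. Voom gave 3 for MI+CIH against CIH and for the infarction average (5 each, of which Ncf4 and Rac2 had no recovered reads), and leaving out 1 library gave 5 to 6 and 5. In MI+CIH against MI 0 to 1 passed.

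Of all genes, MI against sham (304) gave 143 with no filter, 1042 with only those groups, 177 with the replicate block, 65 without sham 2 and MI+CIH 3, and 22 to 484 with 1 library left out. CIH against sham (1) gave 0 with only those groups, the block, without those libraries or with median-of-ratios scaling, 15 with voom, and 0 to 124. MI+CIH against MI (51) gave 82 with no filter, 12 with a mean of at least 1 FPKM, 0 with pseudocount 0.1 or only those groups, 14 with the block, 10 without those libraries, 77 with median of ratios, 96 with voom, and 0 to 1029. MI+CIH against CIH (4368) gave 1475 with only those groups, 2291 without those libraries, and 2826 to 4590. MI+CIH against sham (2603) gave 1173, 563 and 976 to 3035 likewise. The interaction (12) gave 1 with no filter, 2 with pseudocount 0.1, 0 with the block or without those libraries, 155 with median of ratios, 172 with voom, and 0 to 999. The infarction average (3737) gave 2228 without those libraries and 2481 to 4167. The causes were not tested.

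Nox4 minus Cybb under infarction was 1.72 with pseudocount 0.1 and 0.92 to 1.27 with 1 library left out; Nox4 minus the fibroblast mean was 1.3 and 0.51 to 0.7; Cybb minus the macrophage mean was -0.13 to -0.03. The hypoxia effects crossed 0: -0.24 to 0.11, -0.23 to 0.01, and -0.08 to 0.02, the last also 0.03 without sham 2 and MI+CIH 3. Other reversals were of changes that had not passed. With 1 library left out, Cyba ran from -0.01 to 0.73 in CIH against sham, from -0.06 to 0.67 in MI+CIH against CIH and from -0.08 to 0.29 in the infarction average. Ncf1 ran from -0.09 to 0.19 in CIH against sham, and Ncf4 from -0.04 to 0.96 in MI+CIH against MI. Xdh ran from -0.06 to 0.25 in MI against sham, from -0.32 to 0.32 in MI+CIH against MI and from -0.26 to 0.38 in MI+CIH against sham. Without sham 2 and MI+CIH 3, Ncf1 in CIH against sham was -0.03, Ncf4 in MI+CIH against MI was -0.04, and Xdh was -0.32 in MI+CIH against MI and -0.31 in MI+CIH against sham. With median-of-ratios scaling Xdh was -0.01, -0.02 and -0.04 in MI against sham, MI+CIH against MI and MI+CIH against sham.

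Replicate numbers did not pair the libraries: deviations of 18 same-numbered pairs correlated at -0.17 to 0.13, and 4 libraries correlated best with their own number. With the block, Nox4 in MI against sham had limma adjusted p = 0.0584.

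Nox4 rested on 41 to 1265 reads and Ncf4 on 25 to 395, so counting error adds to the spread of the low values. Airway markers were present in all MI+CIH libraries, and no alternative removes that.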
